A study of Rattus norvegicus with 4 samples.

Results

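The transcripts described here encode the respiratory chain and ATP synthase of mitochondria. They were taken by name, as every probe set whose annotated symbol starts with Nduf, Sdh, Uqcr, Cox4, Cox5, Cox6, Cox7, Cox8 or Atp5, or is Cyc1, Cycs or Atpif1. A probe set is a group of short probes on the array that together read 1 transcript. Of 8740 probe sets on the array, 109 matched the rule. Of these, 102 carried a single symbol and stand for 56 of the 4736 genes so named, and 7 were annotated to several symbols and are described apart. By complex, the single-symbol probe sets read 26 genes of complex I, 1 of complex II, 4 of complex III, 12 of complex IV and 9 of complex V. The others read Atp5if1 (the present symbol of Atpif1), the assembly factors Ndufaf3 and Sdhaf2, and the pseudogene Cox6c-ps1.

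The samples were soleus, a calf muscle that works mainly in standing, from female rats. In the unloaded group the hindlimbs bore no weight for 10 h daily during 11 days, and control rats had normal cage activity. RNA from 4 to 5 rats was pooled for each array, with 2 pools a group, so spreads and p-values describe pools and not single animals. The sources used here give neither strain nor age.

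Complexes I and II pass electrons from NADH and succinate to ubiquinone. Complex III passes them on to cytochrome c and complex IV, cytochrome c oxidase, to oxygen, and the proton gradient built on the way drives ATP synthase, complex V. Slow oxidative fibres such as those of the soleus are rich in mitochondria, and the subunits are made partly from nuclear and partly from mitochondrial genes. No probe set carried the symbol of a mitochondrially encoded subunit, so those subunits were not analysed here. Ndufv1, Sdhb, Sdhc, Sdhd, Uqcrc1 and Cox7a1 were likewise not analysed here, and Cycs, Cox7a2 and Atp5mc1 were read only by probe sets with several symbols.

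A single probe set of Atp5if1 and a single one of Uqcrfs1 passed the test for a difference between the groups, and their promoters are shown for that reason. The sequences are from RefSeq (rat assembly GRCr8) and run from 250 bases before the annotated gene start to 50 bases after it. The first is chr5:150026628-150026927 on the minus strand and the second chr17:34186352-34186651 on the plus strand.
Atp5if1: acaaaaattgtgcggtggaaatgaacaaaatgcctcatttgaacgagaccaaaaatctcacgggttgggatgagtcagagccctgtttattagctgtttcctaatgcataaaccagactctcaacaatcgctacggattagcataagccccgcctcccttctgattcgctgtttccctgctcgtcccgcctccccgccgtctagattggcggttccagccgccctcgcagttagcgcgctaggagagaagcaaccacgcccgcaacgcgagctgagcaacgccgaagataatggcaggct
Uqcrfs1: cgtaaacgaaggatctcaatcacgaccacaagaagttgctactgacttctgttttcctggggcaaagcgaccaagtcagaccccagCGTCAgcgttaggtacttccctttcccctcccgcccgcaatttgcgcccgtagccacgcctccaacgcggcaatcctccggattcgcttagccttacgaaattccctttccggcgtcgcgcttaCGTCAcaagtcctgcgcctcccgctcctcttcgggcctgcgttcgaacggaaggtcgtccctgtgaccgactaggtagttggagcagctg
Capitals mark TGACG, the core of the cyclic AMP response element, read on either strand. It occurs at 2 places of the Uqcrfs1 window and was not found in that of Atp5if1. These letters were found in 20 of the 47 member promoters in the table (42.6%) and in 21.2% of all 33469 promoters of this length. The motif of nuclear respiratory factor NRF-1 (GCGCA, any 1 base, then GCGC, on either strand) was found in 6 of 47 (12.8%), against 4.25% of all promoters, and the ETS letters CCGGAAG in 10 of 47 (21.3%), against 8.75%. The full element TGACGTCA, which holds TGACG, was found in 2 of 47 (4.26%), against 1.83%. The letters TCAAGGTCA of oestrogen-related receptors were found in 0 of 47, against 0.433%. Neither window printed above holds any of the last 4 sets of letters. The member promoters were 1 per gene, while the 33469 were not limited to 1 per gene or to genes on the array. Such matches describe the sequence alone.

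The signals are MAS5 intensities on a linear scale. Median signals ranged from 33.9 to 35.6 over the 4 arrays. Over the 5257 probe sets bright enough to be tested, log2 signals correlated at 0.987 between control pools and 0.988 between unloaded pools, against 0.973 to 0.974 across groups. The number of arrays limits the precision. Slow-fibre transcripts were bright in all pools, with the slow myosin heavy chain Myh7 at 10907 and 11198 in controls and 9534 and 10728 after unloading, as the tissue label says. Of the 102 single-symbol members, 96 were bright enough to be tested, with mean signals from 21.1 to 5725 and a median of 1142, against a median of 94.1 over all tested probe sets. The 6 left out were dim further probe sets of Ndufb11, Ndufs4, Ndufs8, Cox6a2 and Cox6c, and the pseudogene Cox6c-ps1.

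Respiratory chain transcripts differed little between unloaded and control soleus. Of the 96 tested member probe sets, limma called 1 higher and 1 lower with unloading (2.08%; adjusted p under 0.05, Benjamini-Hochberg over all probe sets tested). Over all tested probe sets the test called 2.59% higher and 2.66% lower, 5.25% together. At an unadjusted p under 0.05 there were 16 members (16.7%), against 20.8% of all tested. Both unloaded pools lay above both control pools for 17 members (17.7%) and below them for 25 (26%), against 25.5% and 25.3% of all tested. In either direction that makes 43.8% of members and 50.8% of all tested. The median size of the fitted change, on the scale of log2(signal + 9), was 0.12 in the members and 0.17 in all tested probe sets. A fitted change of 1.5-fold or more was seen in 1 member, a dim probe set of Ndufb8, against 6.85% of all tested.

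A missed threshold does not show equality, so the width of the intervals matters here. The 95% interval of the change lay within 1.5-fold in both directions for 80 of 96 members (83.3%), against 59% of all tested probe sets. The members are brighter than most, and bright probe sets have narrower intervals. Where signals averaged 500 or more, a limit chosen after the data were seen, the intervals were that narrow for 62 of 70 members (88.6%) and 83% of all. In that range the test called 2 of the 70 members and 8.19% of all probe sets.

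In what follows a gene is represented by its brightest tested probe set, which gives 55 genes, and log2 fold changes are unloaded minus control. By that count 0 genes were higher and 1 lower, against 2.54% and 2.16% of the 3152 genes tested. The estimate was below 0 for 34 of 55 (61.8%), against 48% of all genes. The median log2 fold change was -0.03 over the 26 genes of complex I, 0.17 for the 1 gene of complex II, -0.02 over 4 genes of complex III, -0.08 over 12 of complex IV and 0.04 over 9 of complex V. Over all tested genes it was 0.01. The SD between pools of a group of these per-pool medians was 0.12 for complex I, 0.10 for complex III, 0.08 for complex IV and 0.05 for complex V, so these 4 medians lay within that spread. For complex II, a single gene, it was 0.06. In bulk tissue a change in the share of a fibre type and a change in RNA per fibre cannot be told apart.

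**Figure D1:**
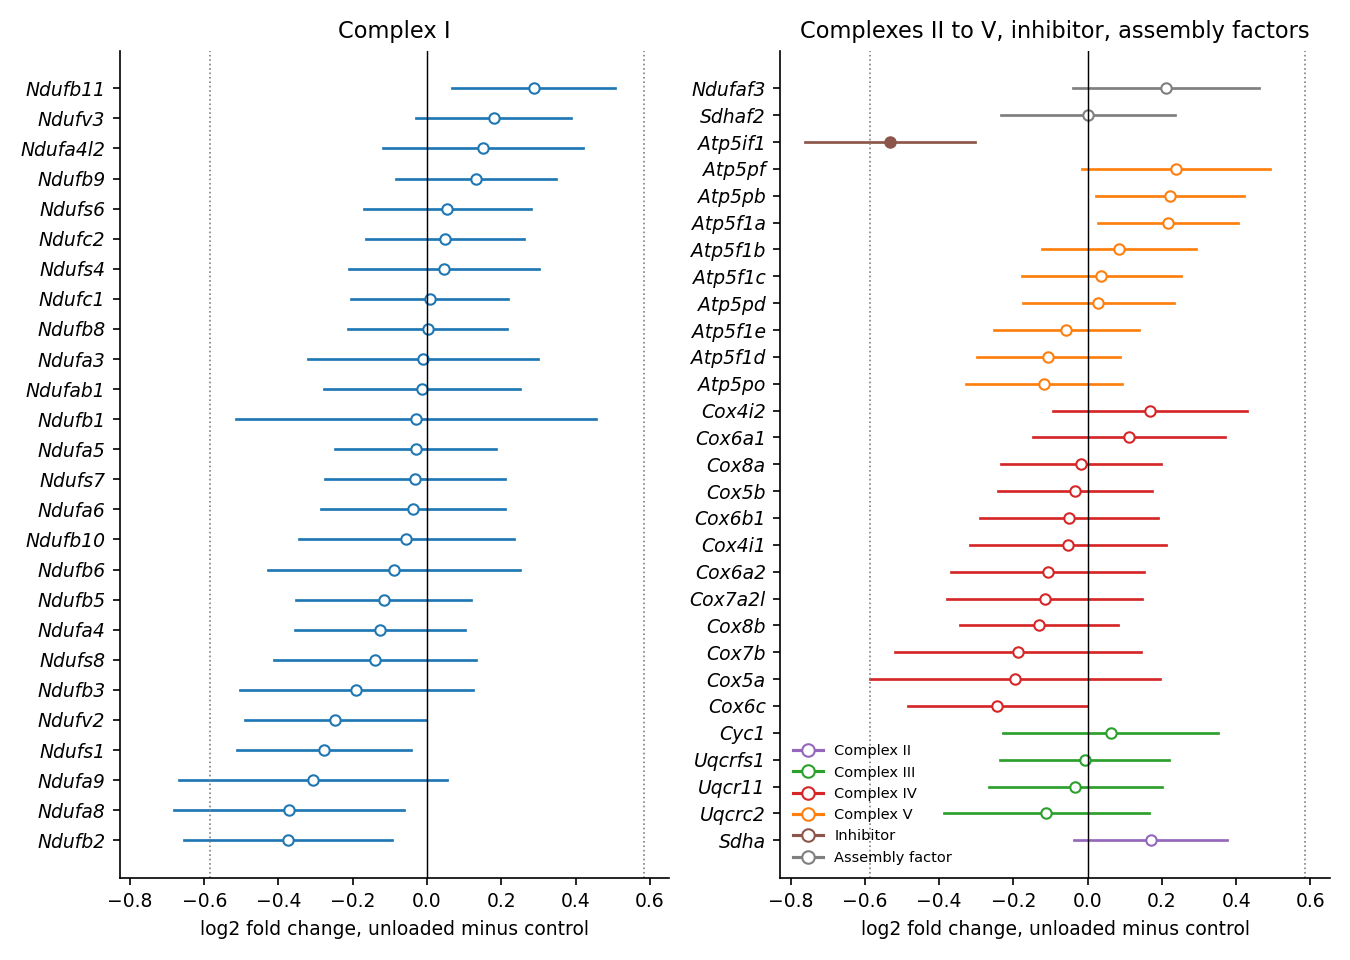
Log2 fold change (unloaded minus control, x axis) of 55 genes by their brightest probe set, with complex I on the left and the other genes on the right. Points are limma estimates from 2 pools a group, bars their 95% intervals, dotted lines 1.5-fold either way, and the filled point the 1 gene with an adjusted p under 0.05, Atp5if1 at -0.53.

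In complex I none of the 26 genes passed. The fitted change was above 0 for 9 and below 0 for 17, from -0.38 for Ndufb2 to 0.29 for Ndufb11. The catalytic core, which carries flavin and iron-sulfur clusters and binds ubiquinone, was read for 4 genes, all with estimates below 0 (median -0.19). Without control pool 2 the median of the core was -0.05, with 2 of 4 estimates below 0, and without control pool 1 it was -0.27. Ndufs1, the largest core subunit, measured 384 and 365 in the control pools and 299 and 316 in the unloaded pools, a log2 fold change of -0.28 (SE 0.10, adjusted p = 0.176). Ndufv2, an iron-sulfur subunit beside the NADH site, measured 2499 and 2984 in controls and 2348 and 2254 after unloading (-0.25, SE 0.11, adjusted p = 0.236). For both genes the unloaded pools lay below the control pools. Ndufs7 (-0.03, SE 0.10) and Ndufs8 (-0.14, SE 0.12), iron-sulfur subunits near the ubiquinone site, had overlapping pools. Both dimmer tested probe sets of Ndufs8 gave -0.21 and -0.20 and did not pass.

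The supernumerary subunits of complex I, which surround the core, had a median of -0.02 over 22 genes. Ndufb2, of the membrane arm, measured 1923 and 2280 in controls and 1479 and 1757 after unloading (-0.38, SE 0.12, adjusted p = 0.133). Ndufa8 measured 1082 and 1299 in controls and 1018 and 821 after unloading (-0.37, SE 0.13, adjusted p = 0.170). In both genes the unloaded pools lay below the control pools. Ndufa9 did too, at 867 and 1237 in controls and 818 and 854 after unloading (-0.31, SE 0.16, adjusted p = 0.310), with control pools farther apart than the unloaded pools were from control pool 1. In the other direction Ndufb11, also of the membrane arm, measured 935 and 932 in controls and 1203 and 1082 after unloading (0.29, SE 0.09, adjusted p = 0.141). Ndufv3, a small subunit beside the NADH site, gave 0.18 (SE 0.09, adjusted p = 0.303), and its dimmer probe set 0.15. Subunits with estimates near 0 included Ndufb8 (0.00, SE 0.09), Ndufc1 (0.01, SE 0.09), Ndufa3 (-0.01, SE 0.13) and Ndufa5 (-0.03, SE 0.09).

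Several complex I genes were read by probe sets that gave different answers. Ndufab1, the mitochondrial acyl carrier protein, came closest to the threshold on a second probe set, at 700 and 821 in controls and 1055 and 981 after unloading (0.42, SE 0.11, adjusted p = 0.0673). Its brightest probe set read 2139 and 2595 against 2220 and 2454 (-0.01, SE 0.11), and its dimmest gave -0.05 (SE 0.22). The middle probe set passed when the tested set was limited to signals above the 50th percentile (adjusted p = 0.0476). For Ndufb8, both bright probe sets gave 0.00 and 0.05, and both dim ones -0.39 (adjusted p = 0.207) and -0.68 (SE 0.34, adjusted p = 0.301) with overlapping pools on the last. Ndufb6 had an estimate of -0.40 (SE 0.17, adjusted p = 0.232) on its dimmer probe set, where the unloaded pools measured 482 and 714 against 750 and 805, and -0.09 (SE 0.15) on the brighter. Ndufa4l2, a paralogue of Ndufa4 known as a hypoxia-responsive gene, was read by 5 probe sets that gave -0.10 to 0.33, none past the threshold. Most of these carry the suffix _f, which marks probes that can read a family of similar sequences. What else they read was not tested. Ndufa4 itself, now held to be a subunit of complex IV, gave -0.13 (SE 0.10, adjusted p = 0.530). Of the 26 member genes with 2 or more tested probe sets, 10 had estimates of both signs, and the range within a gene had a median of 0.11.

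Complex II was read through Sdha alone, the flavoprotein that oxidises succinate. It measured 1810 and 1656 in the control pools and 1942 and 1957 in the unloaded pools (log2 fold change 0.17, SE 0.09, adjusted p = 0.324). The unloaded pools lay above the control pools, and the 95% interval ran from -0.04 to 0.38. The assembly factor Sdhaf2, which helps attach flavin to Sdha, gave 0.00 (SE 0.10). Ndufaf3, an assembly factor of complex I, was read at 285 and 314 in controls and 361 and 334 after unloading (0.21, SE 0.11, adjusted p = 0.315). Its other probe sets, at -0.12 (SE 0.10) and 0.05 (SE 0.26), had estimates of both signs.

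In complex III the brightest probe sets of all 4 genes had overlapping pools. Uqcrc2, a core protein of the complex, gave -0.11 (SE 0.12), Cyc1, its cytochrome c1, 0.06 (SE 0.13), and the small subunit Uqcr11 -0.03 (SE 0.10), with -0.25 (SE 0.10, adjusted p = 0.194) on its second probe set. Uqcrfs1, the Rieske iron-sulfur protein, was read by 3 probe sets. On its dimmest, rc_AI103911_at, signals were 887 and 944 in the control pools and 1236 and 1244 in the unloaded pools. This probe set rose from 915 ± 40.2 to 1240 ± 5.59 (mean ± SD, n = 2 pools), 1.35-fold, with a log2 fold change of 0.44 (SE 0.09) and an adjusted p = 0.0321 in limma. The brighter probe sets measured 3238 and 3354 against 3044 and 3531 (-0.01, SE 0.10, adjusted p = 0.977), and 1661 and 2037 against 1768 and 2027 (0.04, SE 0.12, adjusted p = 0.897). Their intervals, -0.24 to 0.22 and -0.24 to 0.32, lay below the estimate of the called probe set. That call was lost whichever pool was left out (control pool 1: adjusted p = 0.170, control pool 2: 0.117, unloaded pool 1: 0.176, unloaded pool 2: 0.165), with estimates of 0.39 to 0.48. It passed in 5 of 12 alternatives, with adjusted p from 0.0233 to 0.176 over all of them.

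**Figure D2:**
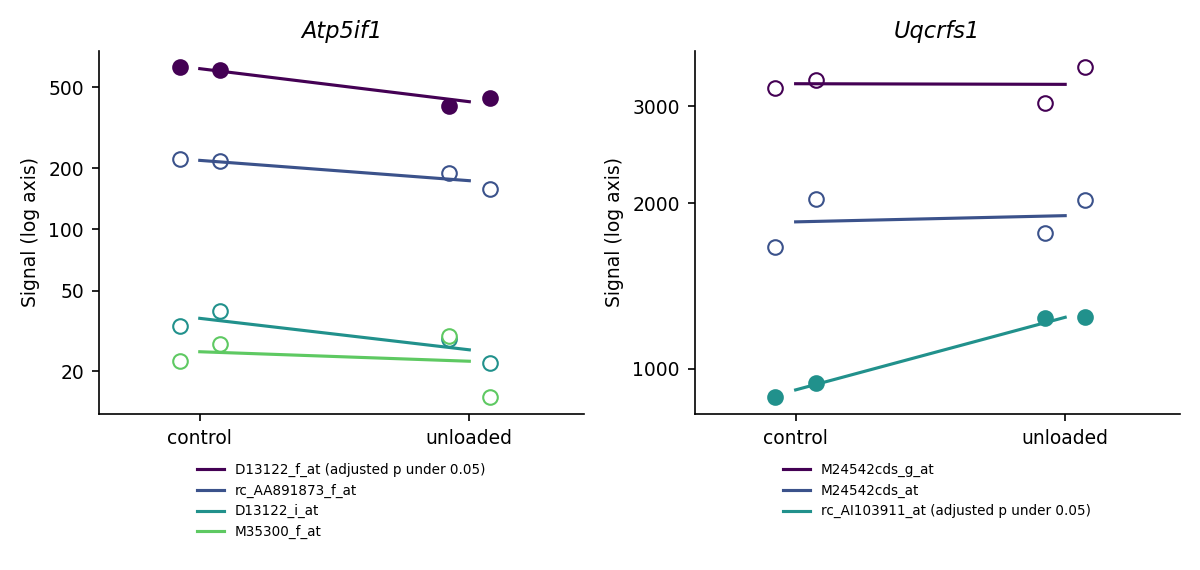
Signal of each pool (y axis, log scale) in control and unloaded soleus for the tested probe sets of Atp5if1 (left) and Uqcrfs1 (right). Circles are pools, lines join the means of 2 pools a group, and filled circles mark the probe sets with an adjusted p under 0.05, which are the brightest of 4 for Atp5if1 and the dimmest of 3 for Uqcrfs1.

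Cytochrome c, the soluble carrier between complexes III and IV, was read by 1 probe set annotated to Cycs, Cycsl1 and Cycs-ps9, which it cannot tell apart. It measured 1688 and 1427 in controls and 1715 and 2062 after unloading (0.28, SE 0.12, adjusted p = 0.256). The unloaded pools lay above the control pools, in unloaded pool 1 by less than the gap between the control pools.

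In complex IV, cytochrome c oxidase, none of 12 genes passed, with 2 estimates above 0 and 10 below. The sarcomeric muscle isoforms of subunits 6a and 8 are Cox6a2 and Cox8b, and the widely expressed ones Cox6a1 and Cox8a. Cox6a2 measured 5660 and 6197 in controls and 4979 and 6065 after unloading on its brightest probe set (-0.11, SE 0.11), and gave -0.15 (SE 0.09) on the other. Cox8b measured 5822 and 5533 in controls and 4898 and 5478 after unloading (-0.13, SE 0.09, adjusted p = 0.476), and gave -0.23 (SE 0.11, adjusted p = 0.269) on its second probe set. All 4 of these estimates lay below 0 and none passed. With a pool left out, the brightest probe set of Cox6a2 gave -0.25 to 0.03 and that of Cox8b -0.21 to -0.05. Cox6a1 gave 0.11 (SE 0.11), 0.19 (SE 0.10) and 0.09 (SE 0.18) on its 3 probe sets. The 4 probe sets of Cox8a ranged from -0.19 (SE 0.11) to 0.05 (SE 0.10). The difference between muscle and widely expressed isoforms was not tested, and the intervals of all 11 probe sets of these genes overlap.

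The regulatory subunit Cox4i1 gave -0.05 (SE 0.11) and -0.09 (SE 0.11) on its brighter probe sets and -0.27 (SE 0.09, adjusted p = 0.137) on its dimmest, where 2185 and 2343 in controls stood against 1832 and 1919. Its alternative isoform Cox4i2, known from lung, measured 163 and 160 in controls and 189 and 176 after unloading (0.17, SE 0.11, adjusted p = 0.458). Cox6c measured 404.9 and 404.5 in controls and 322 and 360 after unloading (-0.24, SE 0.10, adjusted p = 0.236). Cox5b, next to the zinc site of the complex, gave -0.03 (SE 0.09), Cox6b1 -0.05 (SE 0.10) and Cox7b -0.19 (SE 0.14). Cox7a2l, which takes part in joining complexes III and IV, gave -0.12 (SE 0.11) and -0.18 (SE 0.12). Cox5a was read well by a probe set it shares with a second locus, at 6056 and 6694 in controls and 5385 and 6204 after unloading (-0.14, SE 0.10, adjusted p = 0.502). Its single-symbol probe set was dim, with signals of 34.0 to 44.3. The probe set shared by Cox7a2 and Cox7a2l2 gave 0.02 (SE 0.11).

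**Figure D3:**
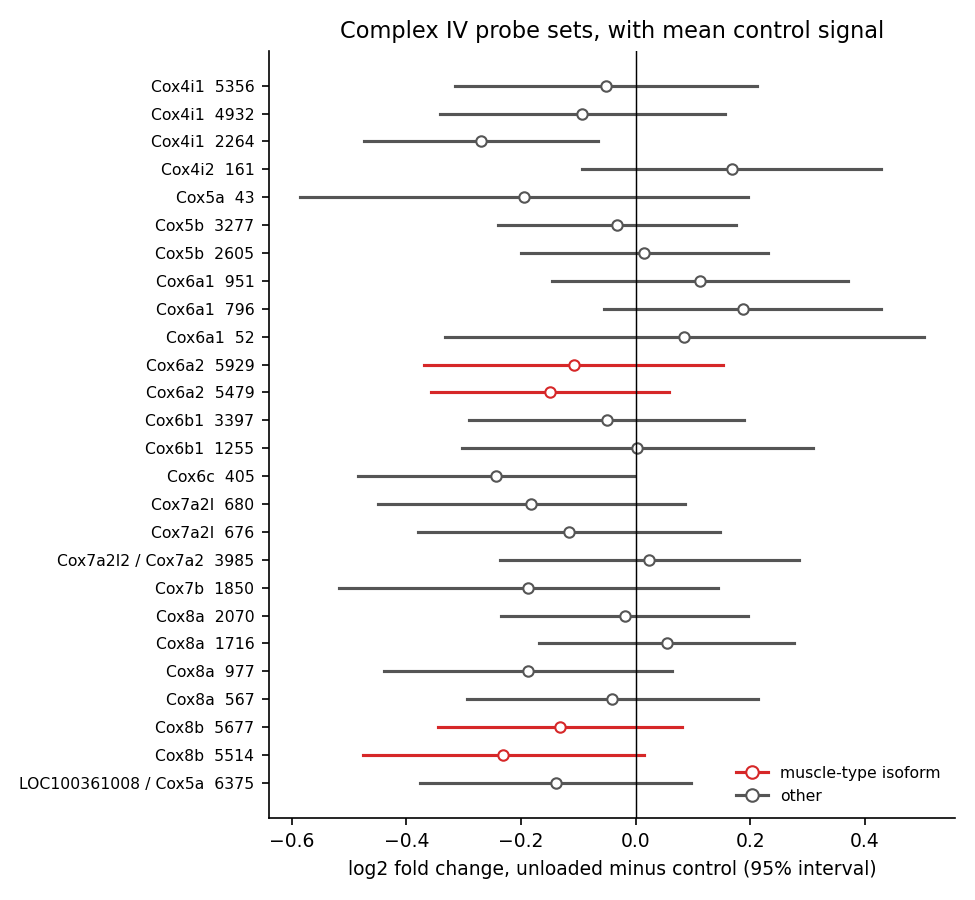
Log2 fold change (unloaded minus control, x axis) with 95% interval for each tested probe set of complex IV, labelled with its gene and its mean control signal over 2 pools. The muscle isoforms Cox6a2 and Cox8b, in red, lie at -0.23 to -0.11, Cox6a1 at 0.09 to 0.19 and Cox8a at -0.19 to 0.05, with overlapping intervals.

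In complex V none of 9 genes passed. The F1 part, which includes the catalytic head and the gamma, delta and epsilon subunits, had a median of 0.04 over 5 genes. Atp5f1a, its alpha subunit, measured 2571 and 2592 in controls and 3008 and 2995 after unloading (0.22, SE 0.08, adjusted p = 0.184). The pools of each group lay close together and the groups apart, with a 95% interval of 0.03 to 0.41. Atp5f1b, the catalytic beta subunit, measured 5014 and 4976 in controls and 5014 and 5598 after unloading (0.08, SE 0.09). The gamma subunit Atp5f1c gave 0.04 (SE 0.09), the delta subunit Atp5f1d -0.11 (SE 0.08) and the epsilon subunit Atp5f1e -0.06 (SE 0.08). The peripheral stalk, which holds the head in place, was read for 4 genes with estimates of both signs. Atp5pb measured 1483 and 1426 against 1738 and 1658 (0.22, SE 0.09, adjusted p = 0.197), and Atp5pf 1770 and 1478 against 1982 and 1837 (0.24, SE 0.11, adjusted p = 0.271), both with unloaded pools above control pools. Atp5po gave -0.12 (SE 0.09) and -0.21 (SE 0.10), with unloaded pools below control pools on both probe sets, and Atp5pd 0.03 (SE 0.09). The proton-carrying c subunit was read by probe sets shared between copies, with Atp5mc1 at -0.20 (SE 0.10, adjusted p = 0.290) and Atp5mc2 at -0.14 (SE 0.11).

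Atp5if1, the inhibitor that blocks ATP hydrolysis by the synthase when the proton gradient collapses, was lower in the unloaded pools. On its brightest probe set, D13122_f_at, signals were 627 and 607 in the control pools and 405 and 444 in the unloaded pools. It fell from 617 ± 13.9 to 424 ± 27.4 (mean ± SD, n = 2 pools), 1.45-fold, with a log2 fold change of -0.53 (SE 0.10, 95% interval -0.76 to -0.30) and an adjusted p = 0.0226 in limma. The second brightest measured 221 and 216 in controls and 189 and 158 after unloading (-0.32, SE 0.12, adjusted p = 0.193). The next gave -0.40 (SE 0.20, adjusted p = 0.299) on signals of 22.1 to 39.6, and the dimmest -0.15 (SE 0.27) with overlapping pools. All 4 estimates lay below 0, and on 3 the unloaded pools lay below the control pools. The suffix of the called probe set marks probes that can read a family of similar sequences, and what else it reads was not tested. The call was lost whichever pool was left out (control pool 1: adjusted p = 0.129, control pool 2: 0.107, unloaded pool 1: 0.178, unloaded pool 2: 0.0978), with estimates of -0.60 to -0.47. It passed in 5 of 12 alternatives, with adjusted p from 0.0142 to 0.178 over all of them.

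Pools of the same group differed more than the groups did for much of the chain. Control pool 2 lay above control pool 1 for 22 of the 26 complex I genes, with a median gap of 0.23 on the log2 scale, where the median gap over all tested genes was -0.01. The same gap was 0.17 over complex III, 0.10 over complex IV and 0.01 over complex V. Over all 55 member genes control pool 2 was the higher for 40 (72.7%), against 47% of all genes tested. Ndufb1, of the membrane arm of complex I, had the widest gap among the complex I genes, at 471 and 793 in the control pools and 582 and 617 in the unloaded pools. Unloaded pool 2 lay above unloaded pool 1 by a median of 0.06 over complex I, 0.17 over complex III, 0.14 over complex IV and -0.01 over complex V. It was the higher for 35 of the 55 member genes (63.6%), against 51.4% of all genes. Without control pool 1 the median change of complex I was -0.16, and without control pool 2 it was 0.06. For complex IV these values were -0.13 and 0.02. Whether the rats or the handling of the pools differed was not tested.

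**Figure D4:**
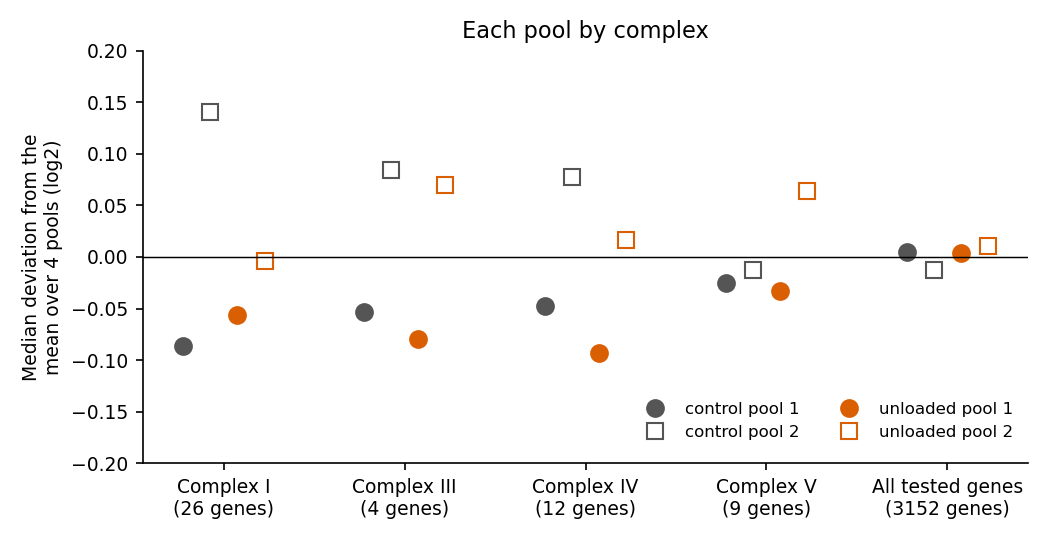
Median deviation of each pool from the mean over the 4 pools (y axis, log2) over the genes of complexes I, III, IV and V and over all tested genes (x axis), with circles for pool 1, squares for pool 2, grey for control and orange for unloaded. Control pool 2 stands at 0.14 and control pool 1 at -0.09 for complex I, with both unloaded pools between them.

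Other genes of mitochondrial energy metabolism were taken from lists by function. For comparison, 2.54% of all 3152 genes tested rose and 2.16% fell. Of 13 tested genes of electron entry and ATP handling 1 rose and 0 fell (median 0.02), the uncoupling protein Ucp3 at 159 and 141 in controls and 354 and 397 after unloading (1.27, SE 0.12, adjusted p = 9.2e-04). The phosphate carrier Slc25a3 gave 0.07 (SE 0.08) and Etfdh, which feeds electrons from fatty acid oxidation to ubiquinone, -0.08 (SE 0.10). None of 6 tested TCA cycle genes passed (median 0.12), with citrate synthase Cs at 549 and 499 in controls and 741 and 657 after unloading (0.41, SE 0.11, adjusted p = 0.0714), Suclg1 at 0.22 (SE 0.10) and Mdh2 at 0.15 (SE 0.09). Of 23 genes of the mitochondrial ribosome, protein import and chaperones, 1 rose and 2 fell (median 0.07). Timm17a, part of the inner membrane import channel, rose by 0.45 (SE 0.09, adjusted p = 0.0292). The ribosomal proteins Mrpl23 and Mrps6 fell by 0.68 (SE 0.13, adjusted p = 0.0298) and 0.67 (SE 0.14, adjusted p = 0.0384). These 3 calls were lost whichever pool was left out. Of 20 listed regulators only 6 had a single-symbol probe set, and of these 6 none passed (median -0.15). Ppara gave -0.51 (SE 0.19, adjusted p = 0.176), Prkaa1 -0.36 (SE 0.18) and Creb1 -0.54 (SE 0.28). All of these were dim, with signals of 24.1 to 44.2, 25.8 to 38.2 and 13.1 to 37.8. The brighter Ppard, Prkaa2 and Esrra gave 0.11 (SE 0.13), 0.10 (SE 0.17) and 0.06 (SE 0.11). None of the 18 listed assembly genes outside the members had a single-symbol probe set.

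Of 10 tested fast-fibre marker genes 6 rose with unloading and 0 fell (median 0.54), against 2.54% and 2.16% of all genes tested. The summed signal of the fast-fibre genes went from 12146 and 10552 in controls to 16859 and 16757 after unloading. Tnni2, fast troponin I, rose by 1.04 (SE 0.14, adjusted p = 0.00549) and the fast calcium pump Atp2a1 by 0.73 (SE 0.10, adjusted p = 0.00716). The other 4 that rose were Myl11, Tnnt3, Myh2 and Tnnc2. Myl1 (0.17, SE 0.09), Myh4 (0.15, SE 0.21), Pvalb (-0.14, SE 0.19) and Myh1 (-0.04, SE 0.21) did not pass. Leaving out control pool 1 kept 5 of these 6 calls, leaving out control pool 2 kept 1, and leaving out either unloaded pool kept 0. Without a filter 2 passed, and without a mean-variance trend 1. Of 6 tested slow-fibre genes none passed (median 0.02), with summed signals of 38141 and 37145 in controls and 35850 and 39515 after unloading. None of the 3 adipocyte, 4 endothelial, 4 smooth muscle, 2 blood, 2 leukocyte, 2 Schwann and 2 cardiac marker genes tested passed. Their medians ran from -0.16 for adipocytes to 0.29 for blood. The adipocyte genes differed in sign, with Cfd at -0.61 (SE 0.19), Lep at -0.16 (SE 0.12) and Fabp4 at 0.31 (SE 0.11). Summed signals were higher in both unloaded pools for smooth muscle (969 and 1087 against 1205 and 1306), blood (4256 and 4508 against 5132 and 5035) and cardiac genes (5827 and 5172 against 6361 and 6559). The cardiac sum is mostly Myh6 (0.24, SE 0.09), while Nppa gave -0.38 (SE 0.19) and the list median was -0.07. The probe sets of Myh6, Myh7, Acta2 and Hbb carry the same family suffix as the called probe set of Atp5if1. What else they read was not tested. The sums were lower in both unloaded pools for endothelium (370 and 372 against 316 and 343) and Schwann cells (576 and 626 against 544 and 558). Among the endothelial genes Flt1 gave -0.23 (SE 0.13) and Kdr -0.63 (SE 0.31, overlapping pools), while Pecam1 gave 0.02 (SE 0.12) and Vwf -0.03 (SE 0.20). The Schwann sum is mostly Pmp22 (-0.14, SE 0.10), while Mbp gave 0.18 (SE 0.20) and the list median was 0.02. Adipocyte and leukocyte sums overlapped. The part of fibre type or of these cells in the values of the respiratory chain was not tested.

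**Figure D5:**
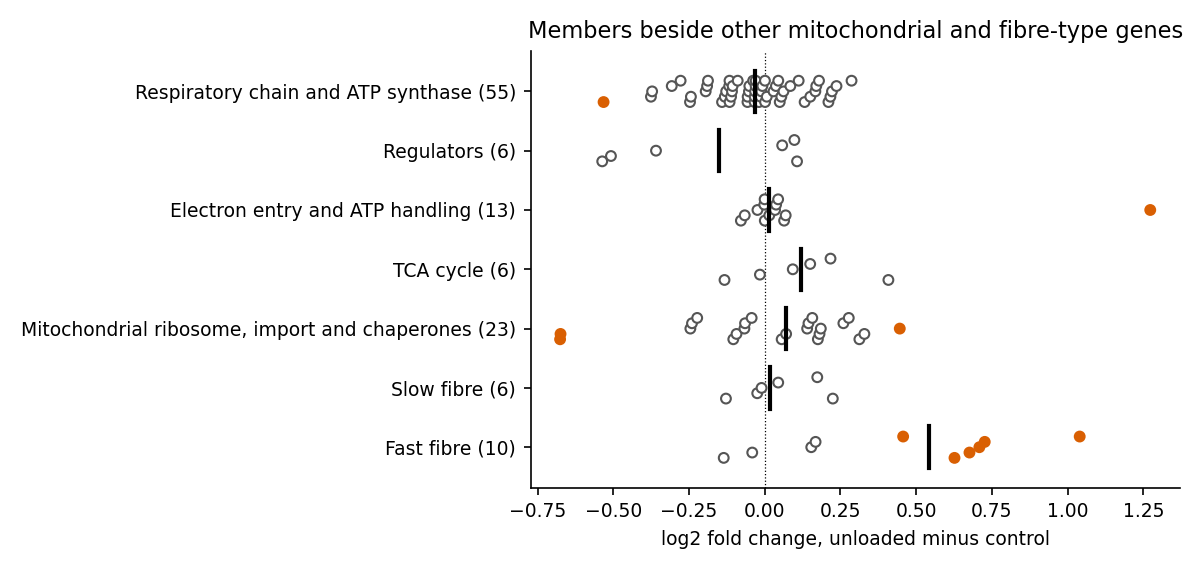
Log2 fold change (unloaded minus control, x axis) of single genes by their brightest probe set, in the respiratory chain and ATP synthase and in 6 other lists (y axis, number of tested genes in brackets). Filled points have an adjusted p under 0.05, black bars are list medians, and the fast-fibre median of 0.54 stands beside -0.03 for the respiratory chain.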

How the data were processed

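Soleus RNA of 4 rat pools (2 control, 2 unloaded) was read on Affymetrix arrays. The deposited values are linear intensity signals per probe set, made with MAS5 per the submitters' processing notes; the sources used here do not give its version or settings. Their trimmed mean (2% off each end) was 150.2 or 150.3 on every array, so a fall shared by all mRNA would not show. Symbols came from the platform's annotation, updated by gene ID to RefSeq (GRCr8): of 8740 probe sets (59 control probe sets left out) 7006 had 1 symbol (6985 matched, 21 kept their name), 308 several and 1426 none.

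Signals were taken as log2(signal + 9), 9 being the 25th percentile, which understates changes of dim transcripts. The 5257 probe sets whose signals averaged 21.0 or more (40th percentile) were fitted with limma 3.58.1 in R 4.3.3 (lmFit, eBayes with trend; 2 residual and 5.80 prior degrees of freedom), two-sided, with Benjamini-Hochberg adjustment over all of them and a threshold of 0.05. Tested on simulated data for this comparison, the fit recovered 31.6% of 1.5-fold and 79.6% of 2-fold changes. The changed probe sets were drawn from all those tested (median SE 0.15). Recovery was not simulated apart for the members (median SE 0.11). Figures used matplotlib 3.10.9.

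The members and lists were chosen with earlier results of these data known. Named genes were members past the threshold, up to 4 per complex with the smallest p, fixed core subunits and isoform pairs, genes whose probe sets disagreed on the call, the 6 largest non-overlapping differences each way, and, per other list, those that passed and up to 3 with the smallest p; further members are named to account for each complex, after their values were seen. As alternatives the fit was repeated after median scaling or quantile normalization, with 2 other offsets, 2 other filters, no trend or the pool number as a block, without each pool, at an adjusted p under 0.10, and on gene means of probe sets.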

Additional observations from a re-analysis of the deposited data

How the results depend on the processing

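The members called were 2 under quantile normalization, median scaling and both other offsets, 3 (2 higher, 1 lower) with the filter at the 50th percentile and at an adjusted p under 0.10, and 0 (0 higher, 0 lower) without a filter, without a mean-variance trend, with the probe sets of a gene averaged, with the pool number as a replicate block, and with any pool left out (range 0 to 0). Over all probe sets the counts moved from 276 (136 higher, 140 lower) to 90 (42 and 48) without a filter, 113 (52 and 61) without a trend, 165 (78 and 87) with the replicate block and 458 (226 and 232) at an adjusted p under 0.10. They lay between 67 and 84 (22 to 43 higher, 38 to 55 lower) with a pool left out, where fewer arrays enter the fit. The cause of the other changes was not tested. The pool numbers are not known to pair the rats, and deviations of same-numbered pools correlated at -0.04 over all tested probe sets. Among the 55 member genes pool 2 was the higher for 40 in the control group and 35 in the unloaded group. With a pool left out the complex medians ran from -0.161 to 0.0646 for complex I, 0.11 to 0.23 for complex II, -0.07 to 0.04 for complex III, -0.146 to 0.0195 for complex IV and 0.00549 to 0.124 for complex V, and -0.10 to 0.04 over all subunits, so the sign of the medians for complexes I, III, IV and all subunits changed with the pool left out. In the other alternatives these medians moved by less than the SD between pools, and that of complex III was 0.01 with median scaling, which moved the median of all tested probe sets to 0.03. The choices of putting Ndufa4 in complex IV (median -0.11) and of adding the probe sets of several symbols were made after seeing the data. Among the 36 named member probe sets, the called ones, D13122_f_at of Atp5if1 and rc_AI103911_at of Uqcrfs1, kept their direction in all 12 alternatives run on single probe sets and passed in 5. Estimates of both signs were seen over the alternatives for M35300_f_at of Atp5if1 and for the other probe sets of Uqcrfs1. The same held for the brightest probe sets of Uqcrc2, Cyc1, Uqcr11, Sdhaf2, Cox4i1, Cox5b, Cox6a1, Cox6a2, Cox7b and Cox8a. All of these passed in 0, and AA799336_at of Ndufab1 passed in 1. In the simulation over all tested probe sets a 1.5-fold change was often missed with 2 pools a group, and the members were not simulated apart. Dim probe sets have the widest intervals.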
